A study of Mus musculus with 380 samples.

Results

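Tigit, Cd96 and Cd226 encode 3 related surface receptors of T cells and natural killer (NK) cells, and all 3 were found by symbol among the 23420 genes of the expression table. They were described in T cells taken from B16F10 melanomas, a transplantable tumour line, grown in C57BL/6 mice. The mice were wild type (WT) or carried the label of a knockout of the interleukin-27 receptor gene Il27ra. Smart-seq2, a full-length single-cell RNA-seq protocol, was run on 4 plates, 1 for each pairing of genotype label with CD8 or CD4 T cells, with 94 single cells and a population well of many cells on each. Age and sex were not given in the sources used here, the tumour is the sole treatment named, and the protocol text speaks of CD8+ cells although titles name CD4 plates too. WT4 and KO4 are the codes in the titles, the same within a genotype, and p2 stands in the WT CD4 titles in place of p1. Each group is therefore 1 plate, so no test between groups was made, cells were not treated as replicates, and genotype, plate and animal cannot be told apart.

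The 3 receptors share ligands of the nectin family, above all the poliovirus receptor CD155 (gene Pvr) on tumour and myeloid cells. TIGIT is inhibitory and is abundant on regulatory T cells and on exhausted CD8 cells. CD226, also called DNAM-1, is the activating receptor of the family and works with the integrin LFA-1. CD96 binds CD155 as well, and both inhibitory and costimulatory roles have been described for it. TIGIT competes with CD226 for ligand, so the level of both in 1 cell is of interest.

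Levels are in FPKM, fragments scaled by transcript length and library size, so they can be compared between genes. Cells with at least 1000 genes above FPKM 1 were kept, which left 72 (WT) and 80 (KO-labelled) CD8 cells and 79 (WT) and 73 (KO-labelled) CD4 cells, with 72 cells left out. The kept cells had 1023 to 7014 genes, with plate medians of 3168, 2508, 2045 and 2218 in the same order. Il27ra itself was above FPKM 1 in 43.04% to 65.3% of the kept cells of each plate and stood lower in the KO-labelled wells (85.3 against 157.02 FPKM in CD8, 72.7 against 243.4 FPKM in CD4). Because the targeted gene was still measured, the plates are called KO-labelled. At least 1 of 4 CD3 complex genes was found in 97.3% to 100% of cells per plate, Cd8a or Cd8b1 in 94.4% and 91.3% on the CD8 plates, and Cd4 in 89.9% and 84.9% on the CD4 plates (WT and KO-labelled).

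Tigit and Cd96 lie on chromosome 16 of GRCm38, both on the minus strand, at 43648867 to 43664146 and 46035657 to 46120251 in GENCODE M21, and neither overlaps another annotated gene. The GENCODE start of Tigit lies inside the RefSeq window, downstream of the RefSeq start. Their promoters are shown because 2 receptors of the same chromosome had unlike patterns across the plates below. The sequences are RefSeq's for GRCm38.p6, read 5′ to 3′ on the minus strand from 250 bases before to 50 bases after the RefSeq start, at chr16:43664135-43664434 for Tigit and chr16:46120199-46120498 for Cd96. Capitals mark the letters TGTGGT, the core recognised by RUNX factors, on either strand.
Tigit: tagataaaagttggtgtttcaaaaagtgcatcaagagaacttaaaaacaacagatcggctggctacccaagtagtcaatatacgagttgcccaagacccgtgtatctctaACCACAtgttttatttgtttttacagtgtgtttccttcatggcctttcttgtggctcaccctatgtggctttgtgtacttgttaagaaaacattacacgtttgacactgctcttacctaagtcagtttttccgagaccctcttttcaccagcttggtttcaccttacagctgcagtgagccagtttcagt
Cd96: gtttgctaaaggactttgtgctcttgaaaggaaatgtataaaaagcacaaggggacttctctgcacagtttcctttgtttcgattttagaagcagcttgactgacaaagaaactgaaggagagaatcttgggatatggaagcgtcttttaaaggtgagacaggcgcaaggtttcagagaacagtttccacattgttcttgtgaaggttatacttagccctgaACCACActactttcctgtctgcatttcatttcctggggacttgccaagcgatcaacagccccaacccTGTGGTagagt
The RUNX letters occurred 1 time in the Tigit window and 2 times in the Cd96 window, and 16.7% of 32544 distinct promoters of this length hold them. GGAAA, the core of NFAT sites, occurred 2 times in the Tigit and 5 times in the Cd96 window, without overlapping the RUNX letters, and 61.5% of promoters hold it. The letters GGTGTGA (T-box, in 3.95% of promoters), CTTTGA (TCF/LEF, 16.02%) and TGANTCA (AP-1, 7.79%) are in neither window on either strand. A match describes letters only.

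Tigit was the most abundant member on every plate. In WT CD8 cells its FPKM ran from 0 through a median of 917 to 4271. In KO-labelled CD8 cells the median was 4.14 and the highest value 3425 FPKM. In WT CD4 cells they were 2.78 and 7735 FPKM, and in KO-labelled CD4 cells 224.2 and 6440.3 FPKM, each again from 0. The ranges of the 4 plates overlap throughout. Over the cells above FPKM 10 the median was 1349 FPKM in WT CD8, 436.5 in KO-labelled CD8, 912.3 in WT CD4 and 817.0 in KO-labelled CD4, so the CD8 plates differed in the level of these cells as well as in their number. The population wells gave 1478 FPKM for WT CD8, 656 for KO-labelled CD8, 2503 for WT CD4 and 1334 for KO-labelled CD4. Every well was above the mean of its kept cells, which was 1080.5, 367.4, 649.8 and 808 FPKM in the same order, and by the most on the WT CD4 plate, where the well was 3.85 times the mean. Markers listed for other cell types differed between wells too. Summed myeloid markers stood at 41.6 FPKM in the WT CD4 well and 880.7 to 3323 FPKM in the others. Dendritic markers stood at 40.6 against 1259 to 3893 FPKM. The NK list (Ncr1, Klrb1c, Klra8, Klra4, Tyrobp and Fcer1g) stood at 34.4 against 736 to 1749 FPKM. In the KO-labelled CD4 well, which gave the 1749 FPKM, Klra8 and Klra4 were at 0. Which cells the genes of the NK list came from was not tested. The part of other cell types in the well values was not tested either.

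Tigit values fell into 2 ranges, and the lower range sets many of the detections. Of the kept cells with Tigit above FPKM 1, 54 lay at no more than FPKM 10, which is 24.4%. For Cd96 and Cd226, 1 and 16 cells lay there, which is 0.893% and 14.5%. Among all genes with a mean above 300 FPKM and detected in over 30% and under 90% of kept cells, the median share of detected cells at FPKM 1 to 10 was 2.05%, and only Cd8b1, at 25.7%, was at or above Tigit. For Cd8b1 the cells in this range included 16 (WT) and 20 (KO-labelled) from the CD4 plates, a lineage that should lack it, and 9 (WT) and 0 (KO-labelled) from the CD8 plates. What the low Tigit values come from was not tested. Shares of cells with Tigit on each plate and in each state are therefore given above both limits.

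Above FPKM 1, Tigit was found on the CD8 plates in 91.7% (WT; exact 95% interval 82.7 to 96.9, counting error only) and 71.3% (KO-labelled; 60.05 to 80.8) of cells. On the CD4 plates it was found in 60.8% (WT; 49.1 to 71.6) and 68.5% (KO-labelled; 56.6 to 78.9). Above FPKM 10 the counts in CD8 were 54 of 72 (WT) and 37 of 80 (KO-labelled), with intervals of 63.4 to 84.5% and 35.03 to 57.8%. In CD4 they were 41.8% (WT; 30.8 to 53.4) and 58.9% (KO-labelled; 46.8 to 70.3). WT CD8 led at both limits. Its neighbour in the order above FPKM 10, KO-labelled CD4, had an interval that overlaps that of WT CD8, and the intervals of the 2 lowest plates overlap almost wholly.

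Cd96 was a CD8-weighted member. On the CD8 plates 52.8% (WT; 40.7 to 64.7) and 46.3% (KO-labelled; 35.03 to 57.8) of cells had it, and on the CD4 plates 25.3% (WT; 16.2 to 36.4) and 23.3% (KO-labelled; 14.2 to 34.6). The median was 26.9 FPKM in WT CD8 cells and 0 on the other plates, and the highest values were 820, 1740.4, 1312 and 1472 FPKM. Mean FPKM in CD8 was 145.7 (WT) and 207.6 (KO-labelled), and in CD4 130.6 (WT) and 106.1 (KO-labelled). Both CD8 wells were above both CD4 wells, with 174.4 and 250.5 FPKM for WT and KO-labelled CD8 and 129.7 and 137.6 FPKM for WT and KO-labelled CD4. Within each lineage the intervals of the 2 plates overlap. The median over cells above FPKM 10 was higher in WT CD4 than WT CD8 cells, at 480.2 against 219.3 FPKM, while that of KO-labelled CD4 cells, at 356.4 FPKM, was below that of KO-labelled CD8 cells.

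By mean FPKM and in the wells Cd226 was the least abundant member, while on the CD4 plates more cells had it than had Cd96. It lies on chromosome 18, plus strand. On the CD8 plates 36.1% (WT; 25.1 to 48.3) and 42.5% (KO-labelled; 31.5 to 54.1) of cells had it, and on the CD4 plates 34.2% (WT; 23.9 to 45.7) and 31.5% (KO-labelled; 21.1 to 43.4). All 4 intervals overlap. The median was 0 FPKM on all 4 plates, the mean 46.6, 83.6, 73.97 and 58.1 FPKM in the same order, and the highest cell 501, 468, 677 and 549.5 FPKM. The wells gave 104.5 and 155.4 FPKM for WT and KO-labelled CD8, and 66.2 and 79.9 FPKM for WT and KO-labelled CD4. The KO-labelled CD8 plate was thus first by mean, by share and by well.

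**Figure D1:**
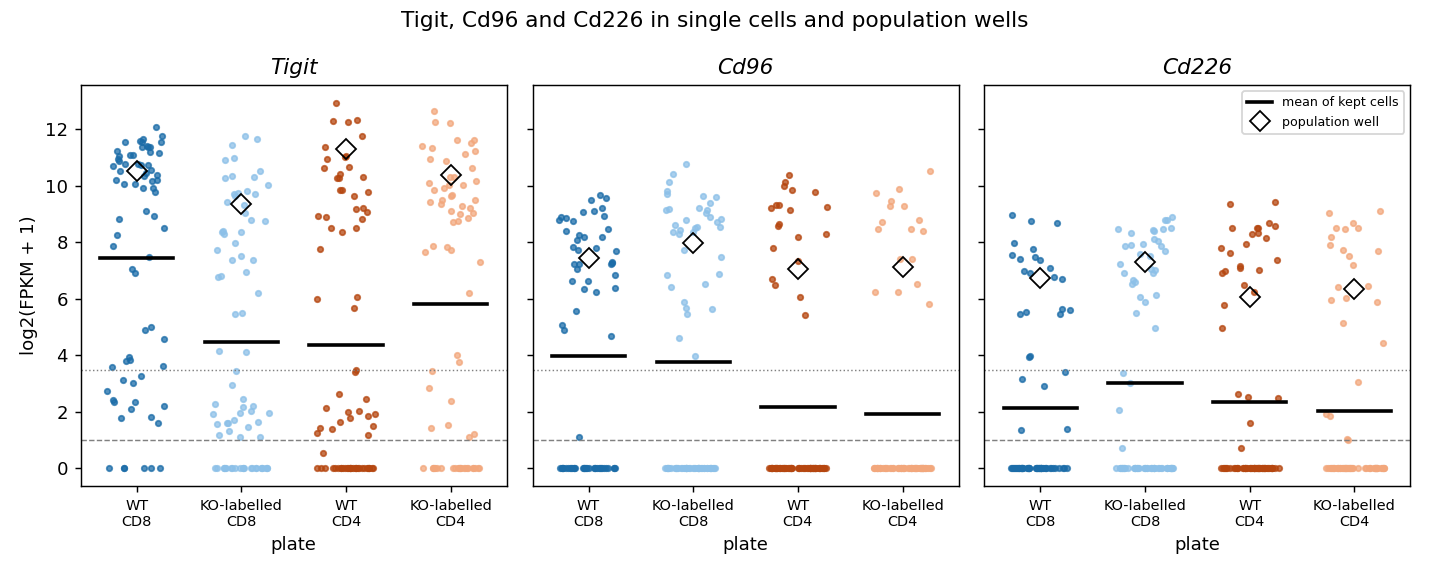
Each point is 1 kept cell, by plate (horizontal axis), with its level as log2(FPKM + 1) (vertical axis) for Tigit, Cd96 and Cd226. Black lines are plate means over kept cells, diamonds the single population wells, and the dashed and dotted lines FPKM 1 and FPKM 10. Tigit has a lower band between the dashed and dotted lines that holds 54 cells, and Cd96 has 1 cell there.

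In CD8 cells Tigit was lower under the KO label, and the other members differed by less than 1 on the log2 scale. The mean of log2(FPKM + 1) of Tigit was 4.46 in KO-labelled and 7.45 in WT CD8 cells, a difference of -2.99, and 0.17% of the 6599 genes compared lay lower. Genes were compared when above FPKM 1 in at least 20% of the kept cells of at least 1 of the 2 plates. Of these genes, 19.5% were lower by 1 or more on the log2 scale and 3.00% higher by 1 or more, with a median of -0.46, so Tigit lay -2.54 from the median gene. Mean FPKM of Tigit was 2.94 times lower in KO-labelled cells, and the wells differed by -1.17, where 7.73% of the same genes were lower by 1 or more. Cd96 differed by -0.19 in cells and 0.52 in wells, and Cd226 by 0.86 in cells and 0.57 in wells, neither reaching 1. Relative to the median gene, Cd226 lay 1.32 higher.

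The 2 CD8 plates also differed in depth and cycling. The median number of genes was 3168 (WT) against 2508 (KO-labelled), and cells with at least 3 of 8 cell cycle genes made up 43.1% and 8.75%. In 41 pairs of cells matched on genes detected the Tigit difference was -1.04, and without cycling cells it was -1.69. The Cd226 difference was 1.06 in the matched cells, as large as that of Tigit there and in the opposite direction, 1.12 with a pseudocount of 0.1 and 0.39 without cycling cells. The summed level of the 6 genes of the NK list ran from 0 to 5613 FPKM (WT) and from 0 to 11403 FPKM (KO-labelled). At least 2 of them were found in 6.94% (WT) and 17.5% (KO-labelled) of CD8 cells, which does not show that these are NK cells. Without those cells Tigit, Cd96 and Cd226 differed by -3.40, 0.21 and 1.22.

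In CD4 cells Tigit was higher on the KO-labelled plate, but lower in its well. The mean of log2(FPKM + 1) was 5.83 in KO-labelled and 4.37 in WT CD4 cells, a difference of 1.46, where 8.75% of 4687 genes were higher by 1 or more and 1.51% lower by 1 or more. Mean FPKM was 808 against 649.8, a ratio of 1.24. In the wells the difference was -0.91. Cd96 differed by -0.22 in cells and 0.08 in wells, and Cd226 by -0.33 in cells and 0.27 in wells. Over cells, 37 of the 50 KO-labelled CD4 cells with Tigit also had Foxp3, which defines regulatory T cells, against 24 of 48 WT CD4 cells with Tigit. The share of CD4 cells with Foxp3 was 57.5% (KO-labelled) and 34.2% (WT), and the wells held 702 and 840.5 FPKM of it. Fewer cells of a type and less RNA per cell cannot be told apart in the wells.

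Between lineages, Cd96 was lower in CD4 cells under both labels, with differences of -1.80 in WT and -1.84 in KO-labelled plates, with -0.42 and -0.86 in the wells. In the WT plates 37.2% of 6524 genes were lower by 1 or more and 2.16% higher by 1 or more. In the KO-labelled plates 11.1% of 5286 genes were lower by 1 or more and 4.63% higher by 1 or more. The Cd96 difference therefore stands lower among genes in the KO-labelled plates, where 1.78% of genes lay below it, than in the WT plates, where 11.2% did. Tigit was lower in WT CD4 than WT CD8 cells, with a difference of -3.09, while the wells differed by 0.76. These plates differ in genes detected (medians of 2045 and 3168), and in 33 matched pairs of cells the difference was -0.43, no longer 1 or more, and by mean FPKM -0.73. It was higher in KO-labelled CD4 than CD8 cells by 1.36, and by 1.02 in the wells, where 7.87% of genes were higher by 1 or more. Cd226 differed by 0.21 in WT cells and -0.98 in KO-labelled cells, and by -0.65 and -0.95 in the wells. The comparisons share plates in pairs, so the genotype and lineage differences are not independent of each other.

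**Figure D2:**
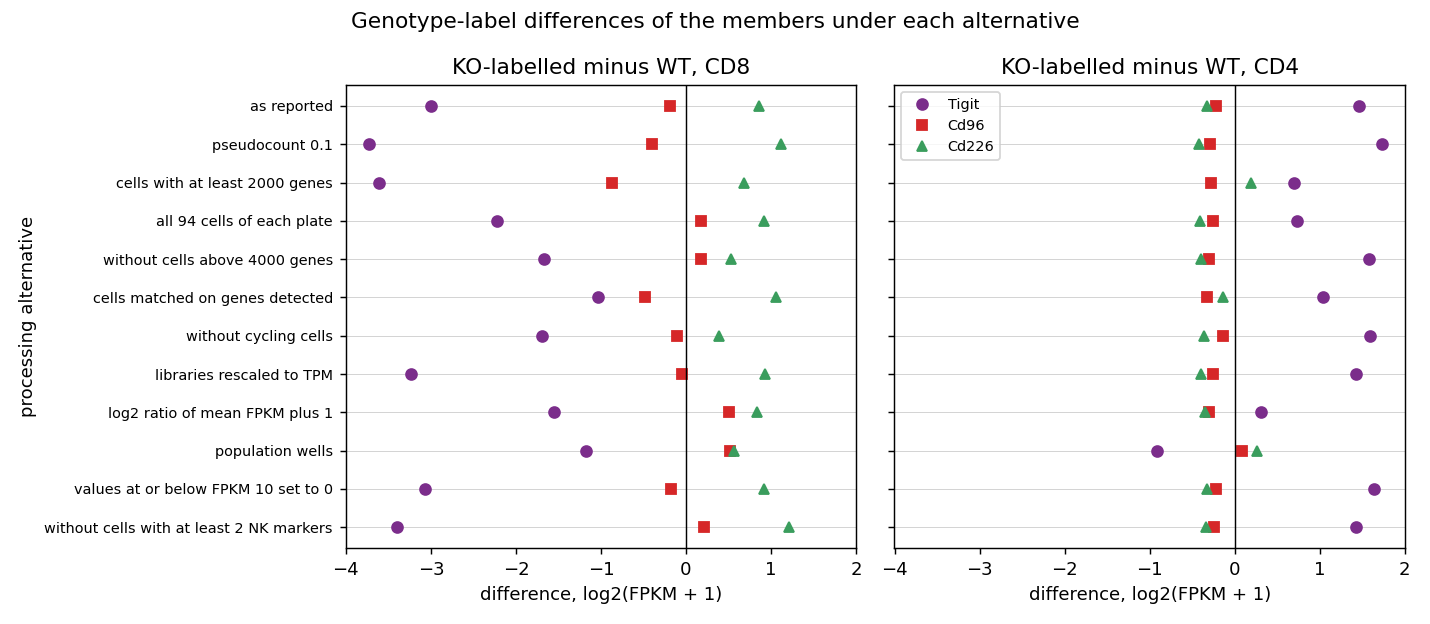
Differences between KO-labelled and WT plates on the log2 scale (horizontal axis) for the processing alternatives common to both lineages (vertical axis), in CD8 (left) and CD4 (right). Values are differences of mean log2(FPKM + 1), except where an alternative changes the pseudocount, the library scaling or the averaging, or uses the wells. The divisions of CD4 cells by Foxp3, at -0.65 (with) and 0.78 (without) for Tigit, are not plotted. In CD8 cells Tigit ran from -3.73 to -1.04 and stayed below 0 under every alternative plotted, and in CD4 cells it was above 0 under each plotted alternative except the population wells, at -0.91.

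Inhibitory and activating members were then set against each other within the same cells. Tigit was the higher of the Tigit and Cd226 pair in 60 of the 68 WT CD8 cells that had either (88.2%, 78.1 to 94.8), in 45 of 67 KO-labelled CD8 cells (67.2%, 54.6 to 78.2), in 42 of 58 WT CD4 cells (72.4%, 59.1 to 83.3) and in 48 of 60 KO-labelled CD4 cells (67.7 to 89.2%). The median difference of Tigit minus Cd226 in log2(FPKM + 1) was 5.35, 1.51, 1.13 and 3.05 in the same order. By mean FPKM, Tigit was 23.2, 4.39, 8.78 and 13.9 times Cd226, and in the wells 14.1, 4.22, 37.8 and 16.7 times. By these measures the balance leaned to Tigit on every plate. It leaned least in KO-labelled CD8 cells by both ratios and least in WT CD4 cells by the median difference. The counts of cells that had either gene rest on the limit of FPKM 1. Tigit values at FPKM 1 to 10, in 12, 20, 15 and 7 cells in the same order, enter the counts and the median differences. The balance without that range was not computed.

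Above FPKM 1, Tigit without Cd226 was the commonest pattern of this pair on all 4 plates. In CD8 it was found in 58.3% (WT; 46.1 to 69.8) and 41.3% (KO-labelled; 30.4 to 52.8) of cells, and in CD4 in 39.2% (WT; 28.4 to 50.9) and 50.7% (KO-labelled; 38.7 to 62.6). Cd226 without Tigit was found in 2.78%, 12.5%, 12.7% and 13.7% of cells in the same order. With both genes read at FPKM 10, Tigit without Cd226 was in 55.6%, 23.8%, 30.4% and 43.8%, and Cd226 without Tigit in 9.72%, 16.3%, 17.7% and 10.96%. The KO-labelled CD8 share moved the most with the limit. At FPKM 10 cells with neither gene were the commonest in KO-labelled CD8, at 37.5%, and in WT CD4, at 40.5%.

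**Figure D3:**
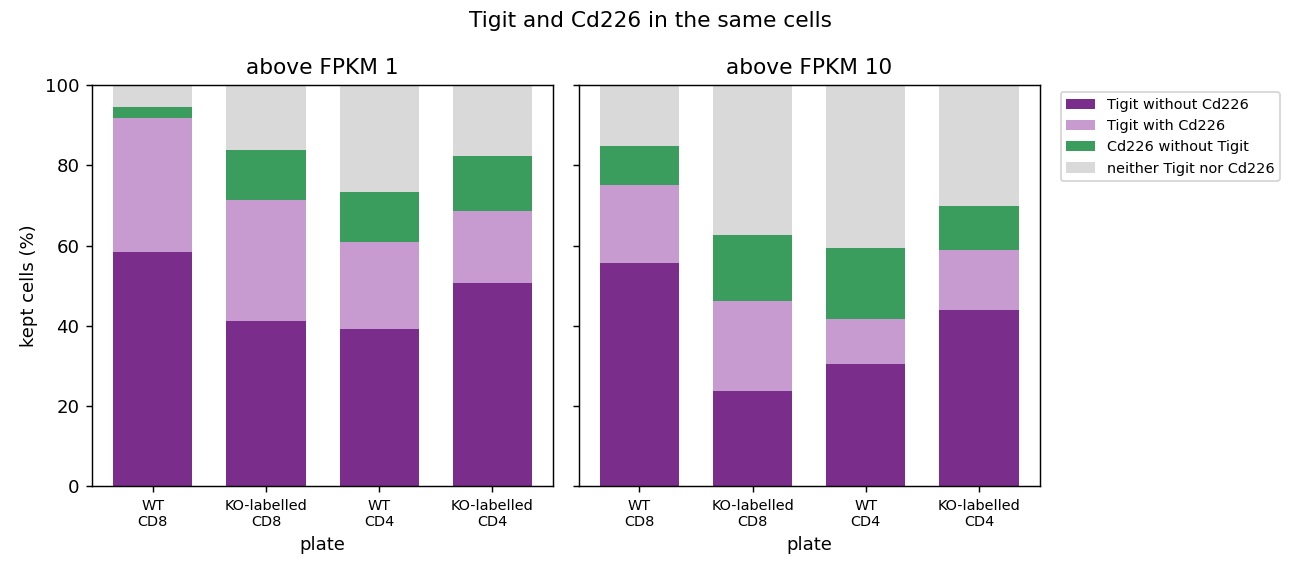
Kept cells (vertical axis, percent) of each plate (horizontal axis) divided by detection of Tigit and Cd226, above FPKM 1 (left) and above FPKM 10 (right). Tigit without Cd226 makes up 39.2% to 58.3% of cells on the left and 23.8% to 55.6% on the right.

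Cells with and without Cd226 had Tigit at similar rates on 3 of the 4 plates above FPKM 1. In WT CD8 Tigit was found in 92.3% of cells with Cd226 and 91.3% of those without, in 70.6% and 71.7% in KO-labelled CD8, in 62.96% and 59.6% in WT CD4, and in 13 of 23 (34.5 to 76.8%) and 37 of 50 (59.7 to 85.4%) KO-labelled CD4 cells. Above FPKM 10 the pairs were 66.7% and 78.4%, 58.1% and 38.8%, 39.1% and 42.9%, and 57.9% and 59.3% in the same order, so the direction differed between the 2 CD8 plates, with intervals that overlap on each plate. The rank correlation of Tigit with Cd226 across cells, with the number of genes detected partialled out, was -0.15, 0.02, -0.01 and -0.13 on the 4 plates (WT CD8, KO-labelled CD8, WT CD4, KO-labelled CD4).

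Cd96 sat apart from Tigit and with Cd226 on the KO-labelled CD4 plate. There Cd96 was detected in 6 of 50 cells with Tigit (4.53 to 24.3%) and in 11 of 23 cells without Tigit (47.8%, 26.8 to 69.4). Cd226 was detected in 11 of 17 cells with Cd96 (64.7%, 38.3 to 85.8) and in 12 of 56 cells without it (21.4%, 11.6 to 34.4). The median number of genes was 2264 and 2110 in cells with and without Tigit, and 2279 and 2103 in cells with and without Cd96. The correlations were -0.44 for Tigit with Cd96 and 0.39 for Cd96 with Cd226 over 73 cells. Of the 73 cells, 9 had Cd96 and Cd226 without Tigit, and 2 had all 3 genes.

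Above FPKM 10 the Cd96 counts were 5 of 43 with Tigit and 12 of 30 without.

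In WT CD4 cells Cd96 was in 22.9% of cells with Tigit and 29.03% of cells without, with correlations of -0.16 for Tigit with Cd96 and -0.03 for Cd96 with Cd226. In WT CD8 cells Cd96 was in 33 of 66 cells with Tigit and 5 of 6 without, and the 6 cells without Tigit all lay at or below the plate's median of genes, where 7 of 30 cells with Tigit had Cd96. Above FPKM 10 the counts over the plate were 29 of 54 and 8 of 18. The WT CD8 correlations were -0.24 and 0.32 with genes detected partialled out, and -0.01 and 0.34 without. Above FPKM 1, Cd226 was in 44.7% of WT CD8 cells with Cd96 and 26.5% of those without. In KO-labelled CD8 cells the correlations were 0.05 and 0.11 with genes detected partialled out. Cells with all 3 genes numbered 15 (WT) against 12 (KO-labelled) in CD8, and 3 (WT) against 2 (KO-labelled) in CD4. None of the 3 was found in 1.39%, 11.3%, 18.99% and 15.1% in the same order. The correlations describe cells that share a plate and differ in depth. Whether they differ between plates was not tested.

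**Figure D4:**
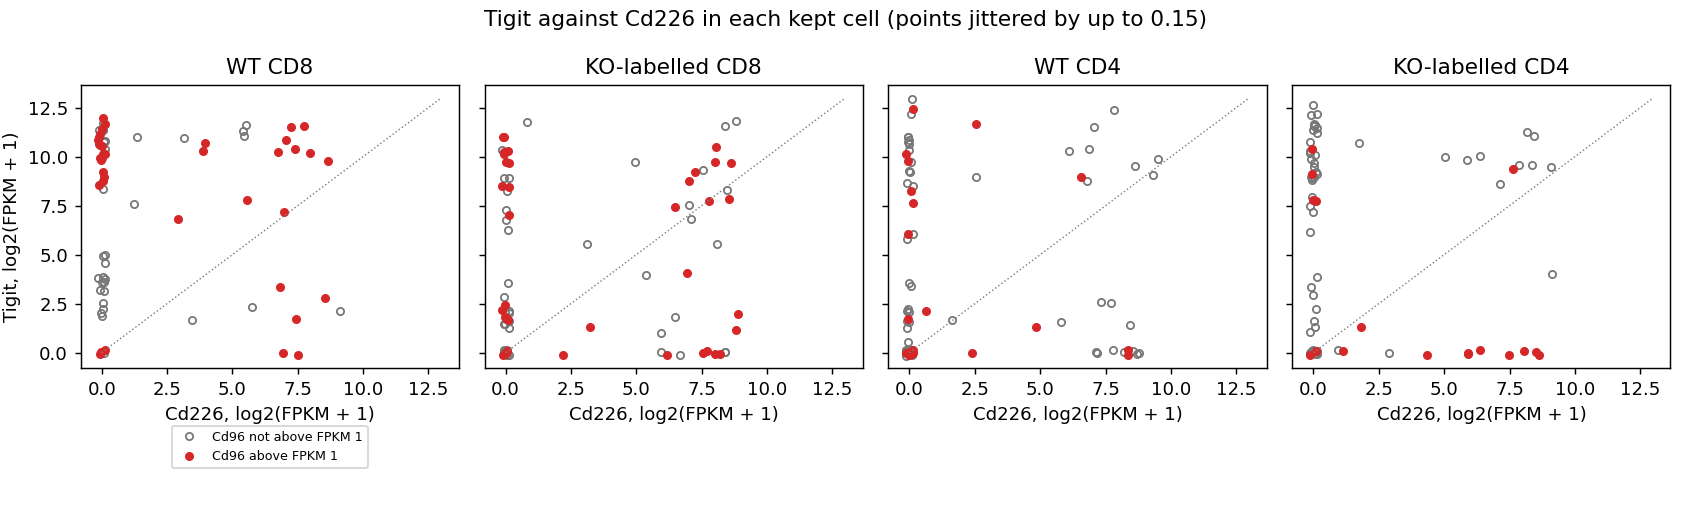
Tigit (vertical axis) against Cd226 (horizontal axis) in each kept cell, both as log2(FPKM + 1), by plate, with filled points for cells with Cd96 above FPKM 1 and a dotted line at equal levels. On the KO-labelled CD4 plate the 9 cells with Cd96 and Cd226 but not Tigit lie along the bottom.

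In CD8 cells Tigit followed the exhaustion receptors, while Cd226 did not separate by them. Cells were divided by detection of at least 2 of Pdcd1, Havcr2 and Lag3, which encode PD-1, TIM-3 and LAG-3. In CD8 this held for 47 of 72 (WT) and 25 of 80 (KO-labelled). Tigit was above FPKM 10 in 45 of those 47 WT cells (95.7%, 85.5 to 99.5) and in 22 of those 25 KO-labelled cells (68.8 to 97.5%). At the limit of FPKM 1 the counts were 46 of 47 and 23 of 25. In the remaining cells it was above FPKM 10 in 9 of 25 WT cells (17.97 to 57.5%) and 15 of 55 KO-labelled cells (27.3%, 16.1 to 40.96), and above FPKM 1 in 20 of 25 and 34 of 55. The WT and KO-labelled intervals overlap within each state, and the states themselves differ in size between the plates. Cd226 was above FPKM 1 in 18 of 47 cells with the receptors and 8 of 25 without in WT, and in 12 of 25 and 22 of 55 in KO-labelled CD8. Cd96 was in 30 of 47 and 8 of 25 in WT, and in 13 of 25 and 24 of 55 in KO-labelled CD8. Cells with the receptors had more genes detected, at medians of 4058 against 2248 in WT and 3523 against 2375 in KO-labelled CD8, and the part of this in the shares was not tested.

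In CD4 cells the division followed Foxp3. Tigit was above FPKM 1 in 24 of 27 WT cells with Foxp3 (88.9%, 70.8 to 97.6) and in 37 of 42 KO-labelled cells with Foxp3 (88.1%, 74.4 to 96.02). It was in 24 of 52 WT cells (46.2%, 32.2 to 60.5) and 13 of 31 KO-labelled cells (41.9%, 24.5 to 60.9) without Foxp3. Above FPKM 10 it was in 23 of 27 and 33 of 42 cells with Foxp3, and in 10 of 52 (19.2%, 9.63 to 32.5) and 10 of 31 (32.3%, 16.7 to 51.4) without. With both genes read at FPKM 1, Cd226 without Tigit was found in 0 of 27 and 0 of 42 cells with Foxp3, which allows shares of up to 11.1% and 7.14%. In cells without Foxp3 it was found in 10 of 52 (19.2%, 9.63 to 32.5) and 10 of 31 (32.3%, 16.7 to 51.4). This pattern was not divided by Foxp3 at FPKM 10. Cd96 was in 9.52% of KO-labelled cells with Foxp3 (2.66 to 22.6) and 41.9% without (24.5 to 60.9), and in 18.5% and 28.8% of WT cells. The Tigit difference between labels was -0.65 among cells with Foxp3 and 0.78 among cells without, against 1.46 over all CD4 cells. The difference over all CD4 cells was larger than within either state.

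The few CD4 cells with exhaustion receptors mostly had Tigit and seldom Cd226. All 19 KO-labelled CD4 cells with at least 2 of Pdcd1, Havcr2 and Lag3 had Tigit above FPKM 10, and 1 of the 19 had Cd226 and 1 had Cd96. In WT CD4, 9 of 12 such cells had Tigit, 2 had Cd226 and 4 had Cd96. These counts are too small to compare the plates.

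**Figure D5:**
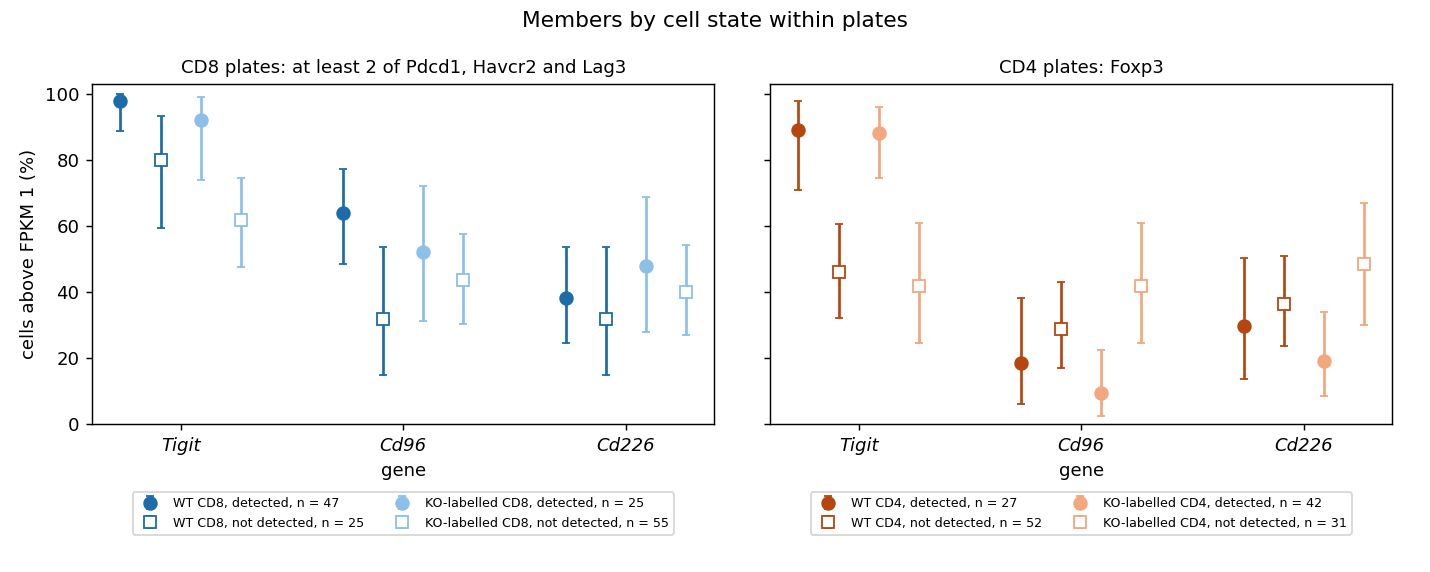
Cells above FPKM 1 (vertical axis, percent) for each member (horizontal axis), with exact 95% intervals, in CD8 plates divided by at least 2 of Pdcd1, Havcr2 and Lag3 (left) and in CD4 plates divided by Foxp3 (right). Filled circles are cells with the state, open squares cells without. Tigit stands higher in the filled circles in all 4 plates, at 88.1% to 97.9%. At this limit its intervals with and without the state overlap on both CD8 plates and are apart on both CD4 plates. The Cd226 intervals overlap in every plate.

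Cells with Tcf7, which encodes the memory factor TCF-1, had less Tigit on every plate. At the limit of FPKM 10 Tigit was in 3 of 11 WT CD8 cells with Tcf7 and 51 of 61 without, in 18 of 48 and 19 of 32 KO-labelled CD8 cells, in 5 of 33 and 28 of 46 WT CD4 cells, and in 6 of 17 and 37 of 56 KO-labelled CD4 cells. At the limit of FPKM 1 the counts were 6 of 11 and 60 of 61, 31 of 48 and 26 of 32, 13 of 33 and 35 of 46, and 7 of 17 and 43 of 56 in the same order. Cd226 was detected in 36.4% and 36.1% of WT CD8 cells with and without Tcf7, in 45.8% and 37.5% of KO-labelled CD8 cells, in 27.3% and 39.1% of WT CD4 cells, and in 41.2% and 28.6% of KO-labelled CD4 cells. Cd226 thus had no common direction with Tcf7, in contrast to Tigit. The exact intervals of the Tigit shares with and without Tcf7 were apart on both WT plates at both limits. They overlapped on both KO-labelled plates at both limits. Median genes detected with and without Tcf7 were 2434 and 3438 in WT CD8, and 2495 and 2565 in KO-labelled CD8. They were 1886 and 2094.5 in WT CD4, and 2238 and 2189 in KO-labelled CD4. The part of depth in the Tigit shares was not tested.

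The genes most like each member were ranked by the mean over the 4 plates of the within-plate rank correlation, with genes detected partialled out, over the genes of 1 sign on all 4. Of 3338 other genes detected in at least 20% of cells of every plate, 682 were of 1 sign for Tigit, 513 for Cd96 and 469 for Cd226. For Tigit the 5 highest were Pdcd1 (mean 0.48, from 0.37 to 0.58), Ctla4 (0.47), Lag3 (0.46), Tnfrsf9 (0.41) and Mmd (0.39). Ctla4 encodes the inhibitory receptor CTLA-4 and Tnfrsf9 the costimulatory receptor 4-1BB. The 3 lowest were Gm12505 (-0.34) and the ribosomal protein genes Rps29 (-0.33) and Rps4x (-0.31). For Cd96 and Cd226 no ranked gene exceeded 0.28, which in values this sparse is weak. Their leading genes were Ctsw (0.24), a protease gene of cytotoxic lymphocytes, for Cd96, and the septin gene Sept9 (0.28) for Cd226. The 5 leading genes of Tigit and of Cd226 were the same without partialling out genes detected, and 3 of the 5 of Cd96. Of the 3 lowest, 1 was the same for Tigit, 0 for Cd96 and 1 for Cd226, and without partialling out the means of Rps29 and Rps4x were -0.15 and -0.03.

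Transcription factors of T cell states were then set beside the members. Over CD4 cells the correlation of Tigit with Foxp3 was 0.53 in WT and 0.52 in KO-labelled cells. With Ikzf2, the regulatory T factor Helios, that of Tigit was 0.50 and 0.61. With Tcf7 it was -0.45 and -0.28 in WT and KO-labelled CD8 cells and -0.40 and -0.30 in WT and KO-labelled CD4 cells. With Tox, a factor of exhausted cells, it was 0.38 and 0.42 in WT and KO-labelled CD8 cells, of which 42 and 11 had Tox. Other listed factors gave lower values for Tigit in WT and KO-labelled CD8 cells: Eomes 0.27 and 0.11, Batf 0.18 and 0.06, and Prdm1 0.32 and 0.17. Cd226 had 0.50 with Tbx21, which encodes T-bet, in WT CD8 cells, but 0.13 in KO-labelled CD8 and -0.07 and -0.04 in CD4 cells. Cd96 had -0.43 with Foxp3 in KO-labelled CD4 cells and -0.20 in WT CD4 cells. These are descriptions across cells of 1 plate each.

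By level, 11 of the 14 factors could be compared in CD8 cells, where 5 were lower by 1 or more in KO-labelled cells and 1 was higher, beside 19.5% and 3.00% of all genes. Their median was -0.85 against -0.46 over all genes, and 0.03 in the wells. The 5 were Tox (-3.74), Runx3 (-2.03), Batf (-1.61), Eomes (-1.56) and Prdm1 (-1.20), and Tcf7 (3.35) was the higher one. In the wells the 5 differed by -1.25, -0.25, -1.75, -1.69 and -0.82 in the same order, and Tcf7 by 1.65. In CD4 cells 12 could be compared, with Foxp3 (1.95), Nfil3 (1.29) and Maf (1.10) higher and Tcf7 (-1.75) lower, beside 8.75% and 1.51% of all genes, and a median of 0.15 against 0.16 over all genes. Between lineages 13 and 12 could be compared, with 5 lower and 3 higher in WT CD4 cells (37.2% and 2.16% of all genes) and 2 lower and 5 higher in KO-labelled CD4 cells (11.1% and 4.63%). The medians were -0.23 and 0.47, against -0.76 and -0.21 over all genes.

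The ligands other than Pvr were scarce in these T cells. Of 10 symbols searched, 6 were in the table. The symbols not found, Nectin1 to Nectin4, are other names of Pvrl1 to Pvrl4, which were found. Pvr was found in 11.1% (WT) and 12.5% (KO-labelled) of CD8 and 16.5% (WT) and 21.9% (KO-labelled) of CD4 cells, and the wells gave 10.4, 47.3, 20.6 and 25.6 FPKM. Pvrl1, Pvrl2 and Pvrl3, which encode nectins 1 to 3, were detected in 0 kept cells, and Pvrl2, the nectin that TIGIT and CD226 share, was at 5.90 FPKM in the WT CD4 well and 0 in the other wells. Pvrl4 and Cadm1 were in at most 2.78% of cells of any plate.

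Crtam, which encodes an activating receptor of the same family that binds the product of Cadm1, was found mainly on the CD8 plates. It was in 22.2% (WT) and 31.3% (KO-labelled) of CD8 cells, in 1.27% of WT CD4 cells and in 0 of 73 KO-labelled CD4 cells, which allows up to 4.11%. The wells gave 51.97, 286.9, 0 and 0 FPKM in the same order. The difference between labels in CD8 cells was 0.82, short of 1, and 2.44 in the wells.

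All 14 genes of the signalling list were in the table. Membership of the list does not show that a gene acts with these 3 receptors. In CD8 cells 1 of 14 was lower by 1 or more, Sh2d1a (-2.21), the adaptor SAP, and none was higher, where 19.5% of all genes were lower and 3.00% higher, with a median of -0.15 against -0.46 over all genes. In CD4 cells 1 of 12 compared was lower, Plcg1 (-1.17), a phospholipase of receptor signalling, and none was higher, where 1.51% of all genes were lower and 8.75% higher, with a median of -0.23 against 0.16. Inpp5d, the phosphatase SHIP-1 that carries TIGIT's inhibitory signal, differed by 0.03 in CD8 and -0.70 in CD4 cells. Itgal and Itgb2, the 2 chains of LFA-1, differed by -0.33 and -0.73 in CD8 and by 0.77 and 0.00 in CD4 cells. Between lineages 5 of 14 were lower in WT CD4 than CD8 cells, near the 37.2% of all genes, and 4 of 13 in KO-labelled CD4 than CD8 cells, where 11.1% of all genes were, and none was higher by 1 or more. The medians were -0.59 and -0.77, against -0.76 and -0.21 over all genes. The kinase gene Fyn (-1.03 and -1.07) and the phosphatase gene Ptpn6 (-2.24 and -2.13) were among them under both labels. In the wells Fyn differed by -0.54 and -0.51, and Ptpn6 by -0.04 and -0.53 (WT and KO-labelled), none reaching 1 in size.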

How the data were processed

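RNA was measured in 94 single T cells and 1 population well on each of 4 plates by Smart-seq2. The authors deposited TMM-normalized FPKM per gene. RSEM, Bowtie and mm10 are named, without versions, in the submitters' processing notes. The file gives no read counts, so depth is described by genes above FPKM 1. Every one of the 380 columns matched a title, 0 were left unmatched and 0 pairs were identical. Means of log2(FPKM + 1) over kept cells were subtracted between plates, with python 3.11.15 and scipy 1.17.1. Shares carry exact Clopper-Pearson 95% intervals for counting error, and where no cell had a gene the limit is 3 cells of the total. Matched cells were paired nearest first within 5% of genes detected. The difference and correlation code was tested on simulated data. The members, lists and rules were chosen with earlier results of these data known. Named are the 3 members, the genes of 4 lists (ligands, other receptors, signalling, transcription factors), and for each member the 5 most and 3 least alike genes, of which the text gives some; 1 gene is not reported here. Gene positions came from GENCODE M21 and 2 of 3 members had a promoter in the RefSeq table. Melanoma, myeloid, dendritic and B cell markers were counted too: at least 2 were detected in 7.59% to 25.0%, 0% to 4.11%, 1.27% to 13.9% and 0% of kept cells per plate, and at least 1 in 97.5% to 100%, 6.33% to 12.5%, 34.2% to 57.5% and 8.86% to 31.9%.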

Additional observations from a re-analysis of the deposited data

Results flagged for a closer look

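Over all kept cells, the Tigit difference between genotype labels had opposite directions in the 2 lineages. It was -2.99 on the log2(FPKM + 1) scale in CD8 cells and 1.46 in CD4 cells. The same 4 plates read the other way gave a CD4 minus CD8 difference of -3.09 under WT and 1.36 under the KO label. With 1 plate per group the difference between these effects was not tested. In the wells both genotype differences were below 0, at -1.17 and -0.91. The CD4 genotype difference was -0.65 in cells with Foxp3, 0.78 in cells without, and 0.31 by mean FPKM. In cells matched on genes detected the genotype differences were -1.04 in CD8 and 1.04 in CD4. The lineage differences in matched cells were -0.43 under WT and 2.53 under the KO label.

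Tigit was also present in cells left out for having fewer than 1000 genes. It was above FPKM 1 in 28 of 72 such cells (38.9%, exact 95% interval 27.6 to 51.1), and above FPKM 10 in 16. Cd96 was above FPKM 1 in 1 of the 72 and Cd226 in 0.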

How the results depend on the processing

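Among the alternatives, 130 values stayed within 1.5-fold of the reported difference on the linear scale, or within the interval of the reported share. Of the others, 41 moved further and 3 changed direction. A change of direction was counted only where the reported difference was 1 or more in size. Smaller differences that changed sign are among the 130 or the 41. Tigit, KO-labelled minus WT in CD8 cells (-2.99), was -3.73 with a pseudocount of 0.1, -3.61 with at least 2000 genes, -2.22 over all 94 cells, -1.66 without cells above 4000 genes, -1.04 in matched cells, -1.69 without cycling cells, -1.55 by mean FPKM and -1.17 in the wells. In CD4 cells (1.46) it was 0.70 with at least 2000 genes, 0.74 over all cells, 0.31 by mean FPKM, -0.91 in the wells, and -0.65 and 0.78 in cells with and without Foxp3. The Foxp3 divisions, the removal of cells with NK markers and the setting of values up to FPKM 10 to 0 were chosen after seeing the data. Tigit, CD4 minus CD8 in WT (-3.09), was -4.12 with a pseudocount of 0.1, -2.28 over all cells, -1.52 without cells above 4000 genes, -0.43 in matched cells, -1.97 without cycling cells, -0.73 by mean FPKM and 0.76 in the wells; under the KO label (1.36) it was 0.68 over all cells and 2.53 in matched cells. Cd96, KO-labelled minus WT, was -0.87 with at least 2000 genes, 0.51 by mean FPKM and 0.52 in the wells in CD8, and -0.86 and 1.23 in CD4 cells with and without Foxp3. Cd96, CD4 minus CD8, was -2.70 and -2.59 with a pseudocount of 0.1 (WT, KO label), -0.16 and -0.96 by mean FPKM, and -0.42 and -0.86 in the wells. Cd226 moved to 0.36 (CD4 labels, without Foxp3), 0.27 (CD4 wells), and, between lineages, to -0.55 with at least 2000 genes, -0.64 in matched cells and -0.65 in the wells of WT, and to -0.32 in matched KO-labelled cells. Tigit without Cd226 in KO-labelled CD8 cells moved to 23.8% above FPKM 10. The causes were not tested, except that matched, Foxp3-divided and filtered values rest on fewer cells. Differences under 1 changed sign between settings for Cd96 in both label comparisons, Cd226 between CD4 labels and Cd226 between WT lineages. Without the 20% filter, over 23420 genes, 5.55% were lower and 0.87% higher by 1 or more (CD8 labels), 0.30% and 1.77% (CD4 labels), and 10.5% and 0.64% between WT and 2.54% and 1.11% between KO-labelled lineages. The CD4 and CD8 plates of a label share a title code, but with 1 plate per group no paired analysis and no test was made.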
